A study of Mus musculus with 6 samples.

Results

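Bidirectional protein-coding promoters are the stretches of DNA from which a pair of protein-coding genes are read in opposite directions. They were taken from the GENCODE vM21 annotation of the mouse genome (GRCm38, the mm10 build) as pairs of protein-coding genes on opposite strands whose transcription start sites (TSSs, the annotated gene starts) diverge and lie 1 kb or less apart. Each member is the window from 1 kb outside one TSS to 1 kb outside the other. The rule gave 756 windows with 1491 distinct genes, 6.79% of the 21951 protein-coding genes. They were set beside 17682 single promoters, whose gene has no other protein-coding TSS within 5 kb and whose window reaches 1 kb to either side of the TSS. No single promoter window overlapped a bidirectional one.

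The data are peak lists of H3K27ac ChIP-seq in B16 F10 cells, a mouse melanoma line, taken on day 5 of low density culture in a model in which the cells become pigmented over time. Cells with low side scatter (LP, low pigment) and high side scatter (HP, high pigment) were sorted from the same culture model, with 2 replicates of each population. The labels give neither a transgene nor a drug for any sample, so that the populations differ by the sort alone. For peak calling the authors had 1 IgG control of unsorted cells per replicate number (2 in all), for which no values are given here. B16 F10 is a single tumour line, and side scatter measures granularity rather than melanin itself. The TSSs of 9 melanocyte genes chosen as markers carried a peak at 6 and 8 genes in the LP replicates and at 9 and 9 in the HP replicates, whereas keratinocyte, fibroblast, leukocyte and endothelial markers carried 0 or 1 peak per list and library.

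Acetylation of lysine 27 of histone H3 (H3K27ac) marks nucleosomes that flank active promoters and enhancers. At a divergent promoter the gene starts share a nucleosome-poor region, often within a CpG island, and the first nucleosomes of each gene lie on opposite sides of it. Divergent gene pairs are known to be common among housekeeping genes, DNA repair and mitochondrial genes among them.

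The distance between the TSSs of a pair had a median of 129 bp, with quartiles of 66.75 and 240 bp and a range of 0 to 987 bp, and it was 300 bp or less in 82.0% of the pairs. There were 20 pairs on the X chromosome, 0 on the Y chromosome and 1 on mitochondrial DNA (mt-Nd6/mt-Cytb). A predicted or unnamed gene was part of 84 pairs, 21 genes belonged to more than 1 pair, and 22 neighbouring windows overlapped each other, so that not all members are independent of one another. Of the last 3 pairs inside the limit of 1 kb, Btf3l4/Txndc12 (987 bp) was called in all 4 libraries, Zfyve26/Rad51b (978 bp) in 3 and Asphd1/Sez6l2 (981 bp) in 0. Of the first 3 outside, Gpr108/Trip10 (1009 bp) and Sgsm2/Tsr1 (1011 bp) were called in all 4 and Serpina7/4930513O06Rik (1007 bp) in 0.

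The DNA between the TSSs is shown for 8 pairs, on the plus strand of GRCm38 from 5′ to 3′, so that the gene named first runs to the left of the sequence and the gene named second to its right. Mrps12/Sars2 and Aamp/Pnkd had the highest ratios of HP to LP. Brca1/Nbr1 and Trmt6/Mcm8 each hold a gene of a long-known divergent pair and 1 DNA repair gene. Srrd/Hps4 holds a gene of melanosome formation, and Hist1h2ag/Hist1h2bj had the lowest ratio. Col4a4/Col4a3 and Il11/Tmem190 carried no peak. Capitals mark matches on either strand to short runs of letters that transcription factors are known to prefer. CCGGAAG was searched for the family of ETS factors, which bind many housekeeping promoters. CCAAT was searched for the trimeric factor NFY, and CCGCCC for the zinc finger factors of the SP family. TATAAA is the TATA box, TGACGTCA the cyclic AMP response element (CRE) and CACGTG the E-box bound by helix-loop-helix factors. The NRF1 and YY1 motifs were searched as well and had no match in these 8.
Mrps12/Sars2 (chr7:28741821-28741991): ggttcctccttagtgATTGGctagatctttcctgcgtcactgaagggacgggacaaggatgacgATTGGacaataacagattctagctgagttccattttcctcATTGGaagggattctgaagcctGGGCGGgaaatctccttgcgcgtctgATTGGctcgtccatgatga
Aamp/Pnkd (chr1:74284739-74284929): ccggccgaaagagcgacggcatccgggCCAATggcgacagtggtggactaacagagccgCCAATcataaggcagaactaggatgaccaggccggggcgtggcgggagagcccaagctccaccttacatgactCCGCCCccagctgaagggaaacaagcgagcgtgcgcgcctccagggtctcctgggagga
Brca1/Nbr1 (chr11:101551956-101552148): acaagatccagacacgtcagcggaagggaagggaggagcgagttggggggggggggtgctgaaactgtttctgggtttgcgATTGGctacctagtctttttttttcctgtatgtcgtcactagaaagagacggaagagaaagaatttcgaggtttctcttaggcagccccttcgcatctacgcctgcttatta
Trmt6/Mcm8 (chr2:132816056-132816140): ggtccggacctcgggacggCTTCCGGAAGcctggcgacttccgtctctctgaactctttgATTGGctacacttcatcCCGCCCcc
Srrd/Hps4 (chr5:112343041-112343082): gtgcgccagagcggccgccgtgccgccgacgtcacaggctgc
Hist1h2ag/Hist1h2bj (chr13:22042945-22043213): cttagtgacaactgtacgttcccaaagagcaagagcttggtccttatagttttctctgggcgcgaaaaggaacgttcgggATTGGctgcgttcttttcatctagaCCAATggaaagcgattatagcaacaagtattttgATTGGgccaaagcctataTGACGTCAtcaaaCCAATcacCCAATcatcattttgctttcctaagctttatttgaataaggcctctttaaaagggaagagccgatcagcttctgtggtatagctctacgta
Col4a4/Col4a3 (chr1:82586850-82586920): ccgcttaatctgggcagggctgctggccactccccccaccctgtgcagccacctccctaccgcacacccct
Il11/Tmem190 (chr7:4782860-4782936): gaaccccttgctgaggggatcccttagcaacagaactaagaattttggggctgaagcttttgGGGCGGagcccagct
The first sequence held 4 CCAAT matches and the histone pair 5, together with the only TGACGTCA match of the 8. Both of the matches to the ETS letters in Trmt6/Mcm8 overlap each other. The stretches of Srrd/Hps4 and Col4a4/Col4a3 held no match, although both are rich in G and C (78.6% and 69.0%). CpG dinucleotides numbered 2 in Col4a4/Col4a3 and 1 in Il11/Tmem190, against 7 to 15 in the other 6. These counts were not scaled by length, which was 71 and 77 bp for the former and 42 to 269 bp for the latter. The 8 pairs were picked, so that the counts do not describe the members without a peak as a set. These sequences are RefSeq's GRCm38.p6 and a match is a run of letters, not a measured binding site.

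Over all members the 2 kb centred on the midpoint between the TSSs had a median GC content of 54.4% and a median CpG observed/expected ratio (the CpG count over that expected from the C and G content) of 0.669, against 50.5% and 0.424 at single promoters. In the 300 bp from 250 bp before to 50 bp after each TSS, CCGGAAG was found at 27.2% of the TSSs of bidirectional promoters, at 8.96% of those of single promoters and at 10.8% of all protein-coding TSSs. The NRF1 motif stood at 16.7%, 5.04% and 5.99%, and the YY1 motif at 4.09%, 0.775% and 1.09%. The ratio of divergent to single TSSs was larger for these 3 motifs than for the others searched. CCGCCC (68.9%, 40.7% and 43.0%), TGACGTCA (4.49%, 2.30% and 2.43%) and CACGTG (11.4%, 7.38% and 7.75%) were also more frequent, CCAAT was close (44.0%, 38.9% and 39.0%), and TATAAA was rarer (4.09%, 13.7% and 12.7%). The windows of a pair's TSSs overlap when the TSSs are close, so that 1 match can count for both, and these shares carry no test.

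Most bidirectional promoters were acetylated. A peak overlapped 86.4% of the windows in LP replicate 1 (653 of 756, 95% Wilson interval 83.7% to 88.6%), 91.5% in LP replicate 2 (692, 89.3% to 93.3%), 91.0% in HP replicate 1 (688, 88.8% to 92.8%) and 92.6% in HP replicate 2 (700, 90.5% to 94.3%). Single promoters were called at 38.5% and 46.6% in LP and at 44.0% and 46.4% in HP. The share was higher at bidirectional promoters in each of the 4 libraries, by 44.9 to 47.9 percentage points with a mean of 46.5 ± 1.25 (SD, n = 4). An exact two-sided sign-flip permutation test over the 4 libraries gave p = 0.125, the smallest that 4 libraries allow, so that this design cannot reach 0.05. The intervals cover counting error only, and no label says that the replicates were separate cultures, so that p-values measure the spread between these libraries, which may be technical.

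The difference shrank against single promoters with a divergent noncoding TSS, which were not matched by sequence, and within quintiles of GC or CpG content. Among the 796 single promoters with a noncoding TSS that diverges from theirs 1 kb or less upstream, 68.3% to 74.4% were called, and bidirectional promoters were higher by 18.2 points (17.2 to 18.8, 4 of 4 libraries). Within quintiles of GC content the mean difference was 32.2 points. Within quintiles of CpG observed/expected, weighted by the number of bidirectional windows, it was 16.9 points (13.7 to 18.7). The difference, taken as a mean where quintiles were used, remained above 0 in each library in each of these comparisons. It did not in every quintile: in the CpG quintile next to the lowest, with 18 bidirectional windows, it was −4.89 to −1.91 points over the libraries.

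**Figure D1:**
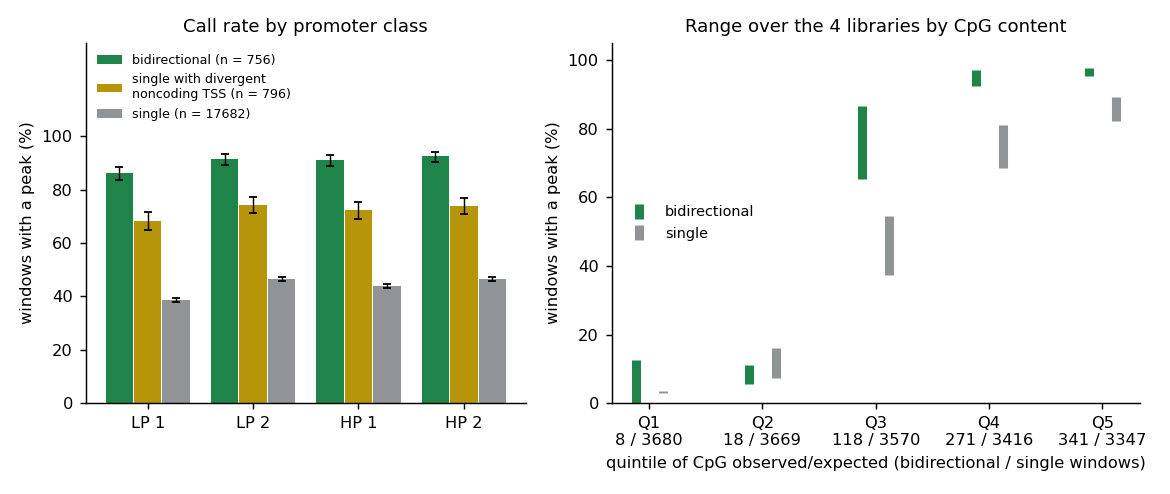
Left, share of windows with a peak in each library (bars; error bars are 95% Wilson intervals) for bidirectional promoters, single promoters with a divergent noncoding TSS and all single promoters. Right, range of that share over the 4 libraries within quintiles of the CpG observed/expected ratio, with the number of bidirectional and single windows under each quintile. Bidirectional promoters lie above single ones in every library and in the upper 3 quintiles, while both classes are low in the lower 2.

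The CpG quintiles differed among themselves. In the highest quintile 341 bidirectional windows were called at 95.3% to 97.7% and single windows at 82.2% to 89.2%. In the middle quintile 118 bidirectional windows were called at 65.3% to 86.4% and single ones at 37.5% to 54.5%. In the lowest 2 quintiles, which hold only 8 and 18 bidirectional windows, 0% to 12.5% and 5.56% to 11.1% were called against 2.99% to 3.59% and 7.47% to 15.999% of single windows. In these lowest quintiles the shares were low for both classes, and so few windows could not show a difference of some points.

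The peaks at called bidirectional promoters were longer. The median length of the widest peak per window was 727 and 994.5 bp for LP against 1062.5 and 1582 bp for HP, against 645, 805, 912 and 1256 bp at called single promoters. The difference was 82, 189.5, 150.5 and 326 bp, with a mean of 187 ± 103 bp (SD, n = 4) and p = 0.125 by the exact sign-flip permutation test, again the smallest possible. Peaks were longer in 4 of 4 libraries, and the size of the difference followed the replicate: its mean was 116 bp in replicate 1 and 258 bp in replicate 2. Against the single promoters with a divergent noncoding TSS it was 22.3 bp (−23.5 to 70 bp), with replicate 1 below 0 and replicate 2 above 0. In the highest CpG quintile, which holds 341 of the members, it was −14.5, −6, −41.5 and 102 bp, below 0 in all libraries but HP replicate 2. Bidirectional windows are longer than single ones by the distance between the TSSs, and equal windows of 2 kb gave 186 bp.

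A difference in the height of the peaks was not shown. The scaled pileup is the number of fragments that cover a summit per 1000000 fragments of the library. Its median over called bidirectional windows was 3.14 and 2.93 for LP and 4.27 and 8.21 for HP, and over called single windows it was 3.14, 2.67, 4.27 and 6.66. The log2 ratio of these medians was 0 in both libraries of replicate 1, 0.13 in LP replicate 2 and 0.30 in HP replicate 2, with a mean of 0.11 ± 0.14 (SD, n = 4; exact permutation p = 0.5). Against single promoters with a divergent noncoding TSS the mean was −0.17, and within CpG quintiles it was −0.14, so that its direction depended on the promoters it was set against.

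All 4 libraries called 643 of the 756 bidirectional promoters (85.1%, 82.3% to 87.4%), and 46 (6.08%) were called in none. For single promoters these shares were 35.9% and 46.2%. Of the remaining 67 members, 29 were called in all libraries but LP replicate 1, the library with the fewest peaks, and 10 only in both libraries of replicate 2. The mitochondrial pair mt-Nd6/mt-Cytb was called in the replicate 1 libraries alone.

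The interval between the TSSs takes up a small part of a window, at medians of 129 bp and 2130 bp, so most summits would fall outside it wherever they lay, and the shares that follow are a description. The highest summit of a called window lay outside the interval between the TSSs, and so inside the transcribed part of one of the genes, in 92.8% to 97.3% of the windows, at a median of 200 and 239 bp from the TSS for LP and of 225 and 216.5 bp for HP. It lay between the TSSs in 7.20%, 2.75%, 3.92% and 3.14% of the windows. At single promoters 86.0% to 88.8% of the highest summits lay downstream of the TSS. The plot of summit distances has its maximum at 150 to 200 bp inside the gene in each library, with LP replicate 1 spread furthest towards the TSS. That library also had the shortest fragments, 167 bp against 184 to 217 bp, and their part in this was not tested.

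**Figure D2:**
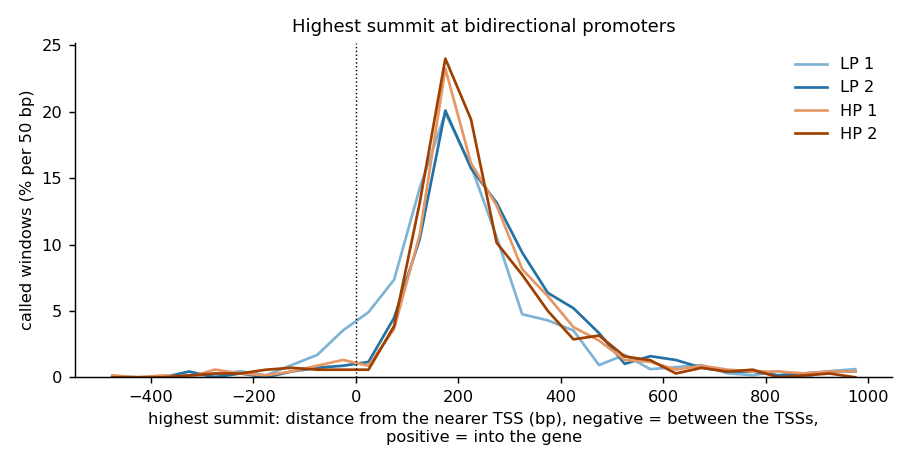
Distance of the highest summit from the nearer TSS, in bp, at called bidirectional promoters, as the share of called windows per 50 bp, 1 line for each library. Negative distances lie between the TSSs and positive ones inside a gene; 4, 8, 8 and 12 windows of LP 1, LP 2, HP 1 and HP 2 lie outside the plot. All 4 lines rise just inside the genes, and few summits lie between the TSSs.

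The closer the TSSs, the fewer the summits between them. At 50 bp or less (129 pairs) the share was 0% in all libraries, at 201 to 300 bp (100 pairs) it was 4.44% to 8.54%, and at 501 to 1000 bp (70 pairs) it was 17.2% to 28.0%. A longer interval gives a summit more room, so these shares carry no test. The highest summit lay in the interval in all 4 libraries at 11 pairs. Among them were Zbtb25/Zbtb1 (664 bp), a pair of zinc finger genes, Cep76/Psmg2 (263 bp), with genes of the centrosome and of proteasome assembly, and Tmem126b/Dlg2 (671 bp).

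The highest summit lay in the same place in all 4 libraries at 440 of the 643 members called throughout (68.4%), on the gene to the left in 208, on the gene to the right in 221 and in the interval in 11. Pairs of libraries shared the place at 80.2% to 84.6% of the members, and the share was no higher within a population (80.4% in LP, 82.7% in HP) than between the populations within a replicate (82.7% and 82.6%). Brca1/Nbr1 carried it on Nbr1, the gene of an autophagy receptor, in all 4 libraries. Atm/Npat carried it on Npat, a coactivator of histone genes, and Mcm4/Prkdc on Mcm4, a subunit of the replicative helicase, also in all 4.

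A single peak covered both TSSs at 51.5% and 53.6% of the called windows in LP, at 51.0% in HP replicate 1 and at 84.4% in HP replicate 2. At least 2 separate peaks were called in 24.96%, 30.9%, 46.7% and 18.6% of the windows, more often than at single promoters in each library (11.6%, 12.8%, 23.5% and 12.6%). HP replicate 2, whose peaks were the longest, stood apart on the first measure, while HP replicate 1 stood apart on the second. The HP libraries lay on either side of the LP libraries in the share with 2 peaks, and no direction between the populations can be read from it.

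**Figure D3:**
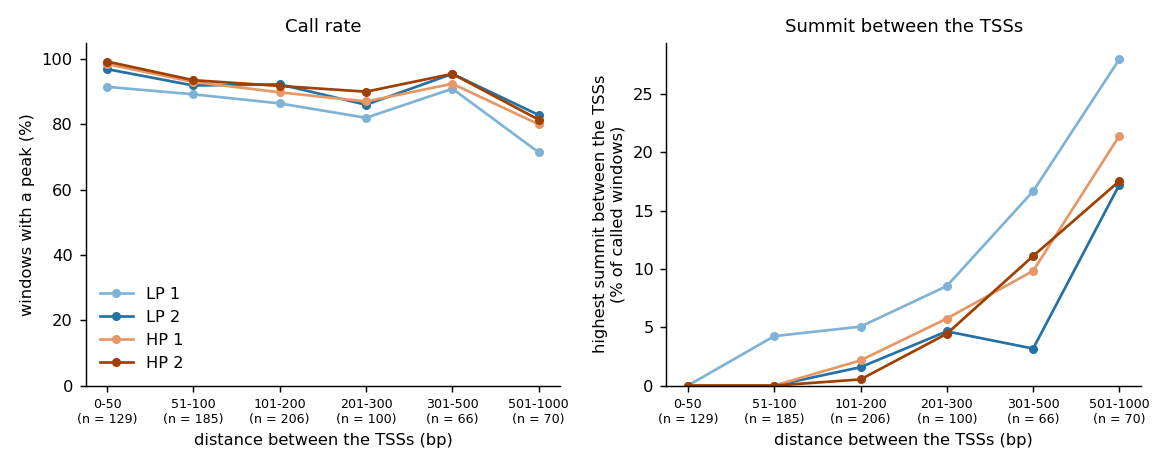
Share of bidirectional windows with a peak (left) and share of called windows whose highest summit lies between the TSSs (right), by distance between the TSSs in bp, 1 line for each library, with the number of pairs under each class. Call rates are lowest for pairs 501 to 1000 bp apart, and the share of summits between the TSSs rises from 0% at 50 bp or less.

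Among the members, the call rate was lowest for the pairs furthest apart. It was 91.5% to 99.2% over the libraries at 50 bp or less, 82.0% to 90% at 201 to 300 bp, 90.9% to 95.5% at 301 to 500 bp and 71.4% to 82.9% at 501 to 1000 bp. The last class also had the lowest CpG observed/expected ratio, 0.617, and the part of CpG content in its call rate was not tested.

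The 46 bidirectional promoters without a peak were poor in CpG. Their median CpG observed/expected ratio was 0.334, against 0.688 for the 643 members called in all libraries, and 8 of the 46 were on the X chromosome, which holds 20 members. Genes of other tissues were among them, named here after their values were seen, and the 46 were not sorted by tissue. They were Col4a4/Col4a3, collagen chains of specialised basement membranes, Pecam1/Milr1, with an endothelial and a mast cell gene, Smyd1/Cd8b1, with a muscle and a T cell gene, and Il11/Tmem190, with a cytokine gene. Peg3/Usp29, an imprinted pair expressed from the paternal allele, was also without a peak, as were Psmd10/Atg4a and Slc27a5/Trim28. The lists of proteasome and of cytosolic ribosome genes each held 1 pair without a peak, and that of histone genes held 3. In the bases between the TSSs, CCGGAAG stood in 2 of the 46 (4.35%) and in 16.02% of the members called in all libraries, whereas CCAAT stood in 52.2% and 37.5%. The interval was longer in the former, 172 against 122 bp in the median.

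A lack of a peak in the window is not a lack of acetylation near the genes. A peak lay within 5 kb of the window in all 4 libraries for 3 of the 46 pairs and in 0 libraries for 24. At Rnf151/Rps2, where Rps2 encodes a protein of the small cytosolic ribosomal subunit, the nearest peak was 258 and 182 bp beyond the window for LP and 247 and 7 bp for HP. At Ccnt1/4930415O20Rik, where Ccnt1 encodes the cyclin of the elongation kinase, it was 1648, 845, 1651 and 717 bp away. At Pecam1/Milr1 it was 5743 to 9248 bp away.

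HP and LP were then compared at the bidirectional promoters. Their call rate was 2.84 points higher in HP, which is smaller than the spread within LP (exact two-sided permutation p = 0.667 over 2 against 2 libraries, where 0.333 is the smallest possible). The difference was 4.63 points within replicate 1 and 1.06 within replicate 2. The gap between bidirectional and single promoters was 0.23 points wider in HP (exact permutation p = 1), at −0.84 points in replicate 1 and 1.30 in replicate 2. The gap in width was 102.5 bp wider in HP (exact permutation p = 0.667), at 68.5 bp in replicate 1 and 136.5 bp in replicate 2 (exact p = 0.5 with the replicate block, the smallest that 2 pairs allow). The gap in log2 pileup was 0.08 higher (exact permutation p = 1), at 0 in replicate 1 and 0.17 in replicate 2. These designs cannot reach 0.05.

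Bidirectional promoters called in both HP libraries and in no LP library numbered 8 (1.06%), against 3.94% of all 182956 merged regions, and 0 were called in both LP libraries alone, against 0.249%. Of the single promoters, 271 (1.53%) and 20 (0.113%) fell in these classes. The 8 had low pileups. Rfxank/Mef2b and Rfxank/Borcs8, which share the gene of an MHC class II regulator, had scaled pileups of 1.04 in HP replicate 1 and 3.65 in HP replicate 2, from the same summit. Ccdc151/Prkcsh, where Prkcsh encodes the beta subunit of glucosidase II, had 1.65 and 2.53. These 3 had the highest −log10 q-values of the 8, and the other 5, named after their values were seen, were Haghl/Ccdc78, Scnm1/Lysmd1, Rad54l/Pomgnt1, Calr3/1700030K09Rik and Mospd2/Fancb. Their highest summits in HP held 15 to 33 fragments.

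For the members called throughout, the level was compared by region. Peaks of the 4 libraries that overlap were merged, and the scaled pileup of a region was that of its highest summit. Of the 643 members, 642 had such a region, in 624 distinct regions of 12084. Their median scaled pileup was 3.14 (0.523 to 20.8) in LP replicate 1, 3.06 (0.586 to 15.3) in LP replicate 2, 4.44 (0.784 to 21.0) in HP replicate 1 and 8.63 (1.40 to 51.1) in HP replicate 2. HP replicate 2 thus lay well above the other 3 libraries. Whether more cells carried the mark, each carried more of it or the difference was technical cannot be told apart in these bulk samples.

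limma, fitted over all 12084 regions on log2 scaled pileup with Benjamini-Hochberg adjustment, called 18 of the 624 regions higher in HP (2.88%) and 0 lower, where 4.01% of all regions were called higher (percent called 0 for lower). The share of members called was thus no higher than the background. Without adjustment, 252 were higher and 0 lower at p under 0.05 (40.4%, against 36.2% of all regions; with the replicate block, 34% of all regions). The log2 ratio of HP to LP had a median of 0.97 at the members and of 0.92 over all regions, and both HP libraries lay above both LP libraries at 74.5% of the members and at 74.8% of all regions. With the replicate number as a block, 2 members were called (Mrps12/Sars2 and Aamp/Pnkd, adjusted p = 0.0468 by limma for both) beside 0.728% of all regions. When each library was centred on its own median over the regions, which lowers every ratio by 1.01, the median at the members was −0.04. With centring, 0 members and 0 of all regions were called. At limma p under 0.05 before adjustment, 5 of the 624 member regions were higher (0.801%) and 8 lower. Over all 12084 regions, 177 were higher (1.46%) and 275 lower. The count of 18 fell to 0 without LP replicate 1, without LP replicate 2 or without HP replicate 2, and it rose to 438 (70.2%, against 57.3% of all regions) without HP replicate 1.

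The ratio differed between the replicates. Its median at the members was 0.50 in replicate 1 and 1.44 in replicate 2, and 119 of 624 regions were below 0 in replicate 1 against 0 in replicate 2. Between the HP libraries the median difference was 0.90 on the log2 scale and between the LP libraries −0.11. The difference between HP replicates thus came close to that between the populations.

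**Figure D4:**
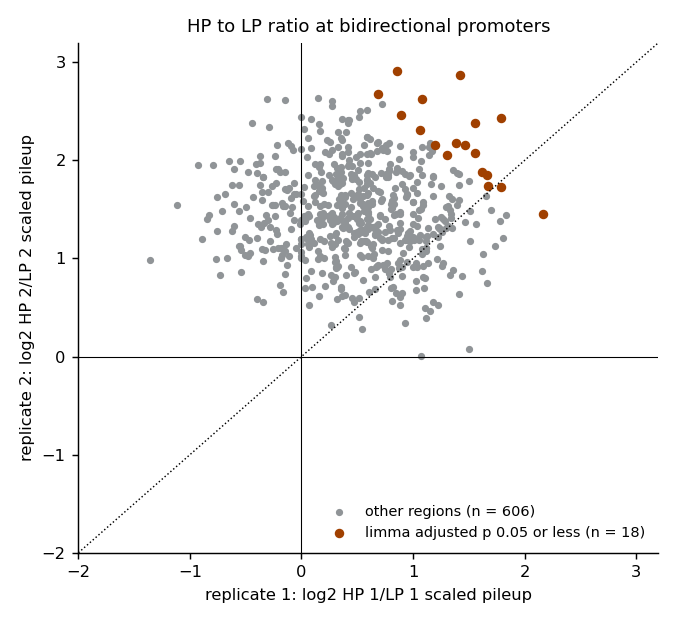
Log2 ratio of HP to LP scaled pileup in replicate 1 (x axis) and replicate 2 (y axis) at the 624 regions of bidirectional promoters called in all 4 libraries; the 18 that limma called at an adjusted p of 0.05 or less are coloured, and the dotted line marks equal ratios. Nearly all points lie above the dotted line, and 119 lie left of 0 on the x axis while 0 lie below 0 on the y axis.

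The highest ratio was that of Mrps12/Sars2. The pair, a protein of the small mitochondrial ribosomal subunit and the mitochondrial seryl-tRNA synthetase, had scaled pileups of 1.66 and 1.69 for LP and of 4.44 and 12.3 for HP. Both HP values lay above both LP values, as they did at 74.8% of all regions. The log2 ratio was 2.14 ± 0.54 (SE), with a limma adjusted p of 0.0331. Aamp/Pnkd, whose first gene encodes a protein linked to cell migration, had 0.959 and 1.43 for LP and 3.31 and 7.72 for HP, with a log2 ratio of 2.11 and the same adjusted p by limma. limma gave every region the same standard error, because it estimated infinite prior degrees of freedom.

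Nlgn2/Tmem256, with the gene of a synaptic adhesion protein, had 1.40 and 1.30 in LP against 4.09 and 6.80 in HP (log2 ratio 1.97, limma adjusted p = 0.0372). Ginm1/Ppil4, with a proline isomerase gene, had 1.40 and 1.37 against 2.53 and 10.3 (1.89). Cdc26/Prpf4, a subunit of the anaphase-promoting complex and a splicing factor, had 1.48 and 2.02 against 3.13 and 12.5 (1.85). At all 3 the groups stood apart, beside 74.8% of all regions with both HP libraries above both LP libraries. The pairs were picked for their high ratios, so that the gap follows in part from the choice. HP replicate 2 lay far above HP replicate 1 at Ginm1/Ppil4 and Cdc26/Prpf4. Ndufaf2/Ercc8, an assembly factor of respiratory complex I and a gene of transcription-coupled repair, had 1.40 and 1.76 against 4.09 and 7.44 (1.82). Tsacc/Cct3, the latter a subunit of the TRiC chaperonin, had 1.92 and 2.28 against 5.31 and 10.2 (1.81), and Hmbox1/Ints9, the latter a subunit of Integrator, had 1.92 and 2.87 against 6.62 and 9.47 (1.76). Eif3k/Map4k1, a translation initiation factor subunit and a kinase of blood cells, had 0.523 and 2.15 against 2.35 and 5.89 (1.81). For it the LP libraries lay further apart than LP replicate 2 and HP replicate 1, and the highest summit of its window in LP replicate 1, in another region, was at 1.40.

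The lowest ratios were near 0. Only Hist1h2ag/Hist1h2bj, a pair of replication-dependent core histone genes, lay below 0 among the 624, at −0.19 ± 0.54 (limma adjusted p = 0.744), with 3.58 and 1.95 for LP and 1.39 and 3.86 for HP. The populations overlapped. These genes have near-identical copies, for which the placing of reads can be uncertain, and its part in these values was not tested. Itfg1/Phkb, the latter a subunit of phosphorylase kinase, had 7.67 and 4.49 for LP and 4.62 and 7.997 for HP (0.05). Tmem126b/Dlg2 (0.10), Kars/Terf2ip (0.11), with the genes of lysyl-tRNA synthetase and of a telomere protein, and Exoc2/Gm5447 (0.11), with an exocyst subunit, followed, with overlapping populations at each. After centring these ratios were −0.96, −0.92, −0.90 and −0.90.

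The highest mean scaled pileup over the 4 libraries was that of Hjurp/Trpm8, the chaperone of the centromeric histone and the cold receptor channel. Hjurp/Trpm8 had 19.4 and 15.3 for LP and 21.0 and 51.1 for HP. In LP replicate 1 another member reached 20.8. Btf3l4/Txndc12 had 19.2, 9.57, 16.02 and 27.9, and Mthfd2/Mob1a, with an enzyme of mitochondrial folate metabolism and a Hippo pathway gene, had 17.3, 11.7, 17.2 and 29.7. At these 3 the populations overlapped or were parted by less than the HP replicates. The longest merged regions began with Sqstm1/Mgat4b, where Sqstm1 encodes an autophagy receptor and the longest peak of the window measured 1895 and 2211 bp for the LP replicates against 5307 and 5994 bp for HP. At Dbi/3110009E18Rik, with the gene of an acyl-CoA binding protein, it measured 616, 557, 1809 and 7415 bp, and at Cryzl1/Itsn1 778, 1567, 1662 and 4680 bp, so that HP replicate 2 stood far above the others.

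Pairs were also taken that hold a gene on a list of divergent pairs long known from the literature. The match was by either gene, not by the pair. Such pairs were called in every library at 8 of 8, beside 85.1% of all members. Of these pairs 6 were with a gene of DNA replication and repair, and the median log2 ratio of the 8 was 1.15, with both HP libraries above both LP libraries at 8 of 8, beside 74.8% of all regions. The adjusted threshold was passed at 2 pairs, beside 4.01% of all regions. Gart/Son, an enzyme of purine synthesis and a splicing protein, had 2.27 and 2.61 for LP and 5.92 and 11.8 for HP (log2 ratio 1.78, limma adjusted p = 0.0457). Trmt6/Mcm8, a tRNA methyltransferase subunit and a helicase of recombination, had 1.22 and 2.15 against 3.74 and 7.93 (1.75, limma adjusted p = 0.0474). With the replicate block their adjusted p was 0.0592 and 0.0607 by limma.

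The other 6 did not pass, with limma adjusted p between 0.115 and 0.268, and 5 of them are described. Brca1/Nbr1, whose first gene acts in homologous recombination, had 2.09 and 2.48 for LP and 2.53 and 8.63 for HP, so that HP replicate 1 lay close to LP. Atm/Npat, with the kinase that responds to DNA breaks, had 3.31 and 3.32 against 4.53 and 11.6. At Brca1/Nbr1 and Atm/Npat HP replicate 2 lay furthest above the LP libraries. Mcm4/Prkdc, the helicase subunit and the catalytic subunit of the DNA-dependent kinase, had 3.40 and 2.93 against 3.48 and 7.65 (log2 ratio 0.71). Emc3/Fancd2, with a gene of the Fanconi anaemia pathway, had 2.09 and 2.67 against 3.66 and 7.58 (1.15). Surf4/Stkld1, with a cargo receptor of the secretory pathway, had 5.06 and 5.99 against 9.32 and 16.7 (1.18).

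Genes of the pigmentation list stood in 3 pairs, each with a subunit of a complex that forms melanosomes and related organelles, and all 3 were called in all libraries, beside 85.1% of all members. Hps5/Gtf2h1, with a BLOC-2 subunit, had 11.2 and 5.02 for LP and 9.14 and 25.5 for HP, where the populations overlapped. Srrd/Hps4, with a BLOC-3 subunit, had 7.15 and 4.69 against 8.10 and 12.5. Bloc1s3/Trappc6a, with a BLOC-1 subunit, had 2.35 and 2.21 against 3.57 and 8.70. Their log2 ratios of 1.03, 0.80 and 1.29 lay on either side of 0.92, the median of all regions, and 0 of the 3 passed the threshold (limma adjusted p = 0.146, 0.227 and 0.0965).

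**Figure D5:**
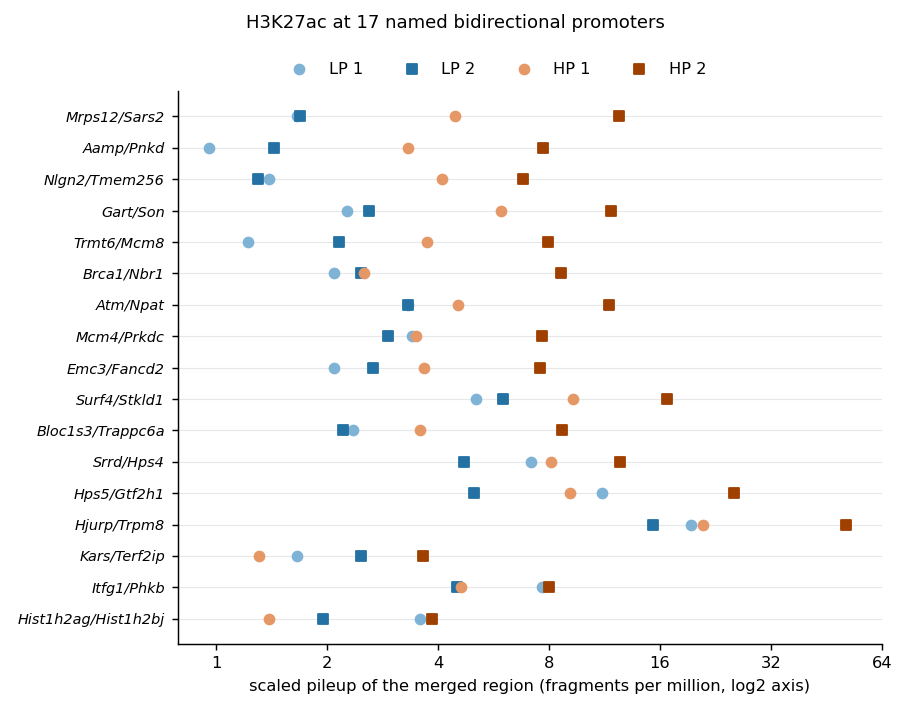
Scaled pileup of the merged region (fragments per 1000000, log2 axis) at named bidirectional promoters in each library; circles are replicate 1 and squares replicate 2, blue LP and brown HP. The promoters at the top have both HP points to the right of both LP points, and those at the bottom have the populations mixed; HP replicate 2 is the highest point at each.

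Over all members, 85.1% were called in all 4 libraries, and the counts of the functional lists are to be read against that share. All members were called in all 4 libraries for the mitochondrial ribosome (18 of 18), chaperones (11 of 11) and aminoacyl-tRNA synthetases (5 of 5). The count was 37 of 42 for DNA replication and repair, 22 of 24 for the respiratory chain, 19 of 20 for mitosis, 19 of 22 for zinc finger genes, 8 of 9 for the cytosolic ribosome and 7 of 8 for the proteasome. For histone genes it was 7 of 14 and for collagen IV 0 of 1. Of the histone pairs 3 were called in no library, and the CpG content of the 3, 0.66 to 0.84 observed/expected, was as high as at called members.

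Over the members of a list the log2 ratio had a median of 1.41 for the aminoacyl-tRNA synthetases (5 regions, 1 called higher), 1.32 for the mitochondrial ribosome (18 regions, 1 higher), 1.17 for the chaperones (11, 1 higher), 1.07 for mitosis (19, 0 higher; the list does not hold Cdc26, whose region was called), 1.06 for the respiratory chain (22, 1 higher), 1.04 for DNA replication and repair (35, 2 higher) and 0.99 for zinc finger genes (18, 1 higher). It was 0.96 for the cytosolic ribosome (8, 0 higher), 0.88 for the proteasome (7, 0 higher) and 0.46 for the histone genes (6, 0 higher), beside 0.92 over all regions. No list had a member called lower. Over all 12084 regions, 4.01% were called higher and 0 lower, and the counts of the lists are to be read against that share. Mrps12/Sars2 counts in the first 2 lists, and 2 histone pairs, Hist2h2ac/Hist2h2be and Bola1/Hist2h2ab, share 1 region.

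Some lists held promoters of high pileup. For mitosis the highest were Cdc27/Myl4, with a subunit of the anaphase-promoting complex (15.1, 10.4, 9.93 and 26.2 in LP 1, LP 2, HP 1 and HP 2), Alyref/Anapc11 (11.2, 8.66, 13.9 and 13.0) and Ift80/Smc4, the latter a condensin subunit (8.72, 6.64, 7.75 and 13.6). For the respiratory chain they were Uqcrq/Gdf9 (9.07, 8.40, 13.2 and 20.6) and Uqcrh/Lrrc41 (9.68, 6.51, 10.1 and 14.4), with subunits of complex III, and Stxbp4/Cox11 (8.81, 7.29, 9.84 and 18.4). The populations overlapped at Cdc27/Myl4 and Ift80/Smc4 and did not at the other 4, beside 74.8% of all regions with both HP libraries above both LP libraries. HP replicate 2 was the highest library at all but Alyref/Anapc11.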

How the data were processed

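H3K27ac ChIP-seq libraries of LP and HP cells, 2 replicates each, were grouped by their labels. The authors trimmed reads with Trimmomatic 0.33, aligned them to mm10 with Bowtie2 2.5.1 and called narrow peaks in each library with MACS 3.0.0b1 at a q-value of 0.05, each against its replicate's IgG control. In the deposited lists the pileup is the number of fragments over a summit, unscaled. The fold enrichment is that over local background, and the −log10 q-value is the authors' MACS output at the summit. Both were used only to rank, filter or describe peaks. The summit offset is the authors' as well. Total fragments, by which pileups were scaled per 1000000, were 11467942 and 15353176 for LP and 11483830 and 14254904 for HP, so that 1 fragment is worth 0.0651 to 0.0872.

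Peaks and windows were matched at an overlap of at least 1 bp. The classes were compared by exact two-sided sign-flip permutation over the 4 libraries and HP with LP by exact permutation of 2 against 2. limma 3.58.1 (R 4.3.3) compared log2 scaled pileup over 12084 merged regions called in all 4 libraries, with Benjamini-Hochberg adjustment and a threshold of 0.05. Read counts were not used here, so DiffBind, the study's tool, was replaced by this fit. The replicate numbers were taken to pair the samples because each replicate set had equal DNA input and its own IgG library. Across regions, the change from replicate 1 to 2 in LP correlated with that in HP at 0.0758 (members) and 0.0153 (all), where regions are not independent replicates. Pairs, overlaps, merging and limma were tested on simulated data. Statistics were computed with scipy 1.17.1 and statsmodels 0.14.6 under Python 3.11.15, and plots with matplotlib 3.10.9.

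The rule for pairs, the functional lists and the tests were chosen with earlier results of these data known. Promoters named are those with a gene of a long-known pair and those with pigmentation genes. The 5 highest and 5 lowest ratios and up to 10 past the threshold are named as well. So are the 3 highest mean pileups, the 3 widest regions, 3 of those called in HP alone and up to 3 per list. 1 promoter that the rule names is not reported here. Alternatives were stricter q-values, equal list sizes, other windows, overlaps, distances, gene sets and chromosomes, GC and CpG quintiles, centring, quantile normalization, mean summits, promoter windows as features, robust variance, the replicate block and leaving out libraries. Quintile means of width and pileup used only quintiles with at least 20 called windows of each class, a minimum set after seeing the data.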

Additional observations from a re-analysis of the deposited data

How the results depend on the processing

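As means over the libraries, the call rate was higher at bidirectional than at single promoters by 16.9 to 49.7 points and the peak longer by 22.3 to 258 bp over the alternatives run. Against single promoters with a divergent noncoding TSS the peak was longer in only 2 of 4 libraries. The comparison with single promoters that have a divergent noncoding TSS, the standard chromosomes and the weighted GC and CpG quintiles were chosen after seeing the data. The log2 ratio of pileup between the classes, 0.11, was −0.17 against single promoters with a divergent noncoding TSS and −0.14 within CpG quintiles, and ranged from 0 without replicate 2 to 0.22 without replicate 1. The gap in call rate between the classes, HP minus LP, was −0.84 points without replicate 2 and 1.30 without replicate 1, and that in log2 pileup 0 and 0.17.

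The number of bidirectional regions that limma called higher in HP, 18, was 2 with the replicate block and 0 with centring, with quantile normalization, with the mean of the summits, with robust variance and with promoter windows as features. It ranged from 0 to 438 on leaving out a library, where a lone library is assumed to vary like the others, and was 14 at q of at most 0.01. The median log2 ratio, 0.97, was −0.041 with centring and 0.058 with quantile normalization. With the block, 9 of the named promoters past the threshold lost their call. Among the exact permutation tests, the block was run only for HP against LP, on the call rate and on the gaps between the classes. It gave a call rate difference of 2.84 points with exact permutation p = 0.5, the smallest that 2 pairs allow. Without the block the smallest is 0.333. No call was possible either way, so these tests cannot show whether a call depends on the block.

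Ratios that changed sign with centring and with quantile normalization were −0.90 and −0.66 at Exoc2/Gm5447, −0.96 and −0.80 at Itfg1/Phkb, −0.90 and −0.99 at Kars/Terf2ip, −0.92 and −0.98 at Tmem126b/Dlg2, −0.30 and −0.25 at Mcm4/Prkdc and −0.21 and −0.0038 at Srrd/Hps4. On leaving out a library they ranged from −0.49 to 0.72 at Exoc2/Gm5447, from −0.35 to 0.45 at Itfg1/Phkb, from −0.63 to 0.85 at Kars/Terf2ip, from −0.39 to 0.58 at Tmem126b/Dlg2 and from −0.92 to 0.55 at Hist1h2ag/Hist1h2bj. The cause was not tested.

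The median pileup of a peak was 7 to 12 fragments, which limits what a missing call can show, and 2 replicates a population cannot reach an exact p below 0.333.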
